A study of Mus musculus with 2 samples.

Results

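The 10 genes described here are *C1qa*, *C1qb*, *C1qc*, *Marco*, *Timd4*, *Cd5l*, *Fcna*, *Lgmn*, *Hmox1* and *Slc40a1*, which resident macrophages use to bind, take up and digest material and to recycle its iron. They were chosen by symbol, and all 10 were found, once each, among the 27998 genes of the deposited gene table. Their levels were followed across the cell types of the mouse fetal liver at e13.5 and across the stages of erythroid differentiation that Ter119 and CD71 mark on the cell surface.

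The fetal liver is the main site of red cell production at this age, and its resident macrophages sit at the center of erythroblastic islands, where they engulf the nuclei that erythroblasts expel. C1q is the recognition part of the first complement component and is built from the products of *C1qa*, *C1qb* and *C1qc*. MARCO and the phosphatidylserine receptor TIM-4 (*Timd4*) bind particles and dying cells, CD5L and ficolin A (*Fcna*) are secreted pattern recognition proteins, legumain (*Lgmn*) is a lysosomal protease, heme oxygenase 1 (*Hmox1*) opens the heme ring and ferroportin (*Slc40a1*) carries iron out of the cell.

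CITE-seq reads out, for every cell, both its transcripts and the DNA-barcoded antibodies bound to its surface. Cells came from pooled fetal livers of C57BL/6 embryos, were separated magnetically by Ter119 after staining for it, and were mixed again from as many Ter119+ as Ter119- cells, so shares of cells are shares of this rebalanced suspension. There is 1 cDNA library and 1 antibody (ADT) library of the same 7863 cells, with no treatment and no replicate, and a test over cells of 1 library would not compare animals, so none was made. Levels are means over cells of a gene's unique molecular identifiers (UMIs) relative to all UMIs of the cell, on the CPM scale, and brackets give 95% intervals that cover counting error only.

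The 7244 cells kept after filtering had a median of 5802 UMIs and a minimum of 2510. They formed 16 clusters, made without the 10 genes so that these did not choose the cells in which they are compared. The macrophage-like cluster held 82 cells, 1.13% of the kept cells (0.901% to 1.403%), with a median of 6328.5 UMIs. Of 17 macrophage markers, 15 were at least 2-fold higher in it than in all other kept cells, among them *Csf1r* (264 UMIs in 76 cells) and *Adgre1* (295 UMIs in 71 cells), while the other two could not be compared, since *Cd163* had no UMI in any kept cell and *Vsig4* had 3. The label macrophage therefore rests on most, but not all, of its markers. Markers of other cell types were mostly low in these cells, as 0 of 14 myeloid, 0 of 9 hepatocyte and 0 of 6 stellate or mesenchymal markers were raised, but 4 of 9 endothelial markers, 2 of 9 megakaryocyte markers and 1 of 6 B cell markers were. Their part in the results was not tested.

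Stages were rebuilt from antibody counts, with the barcodes gaggcgattgat for Ter119, cgaagaaggagt for CD71, catgattggctc for the myeloid antibody CD11b and gtctagacttcg for CD44. S0-low, S0-medium and S1 are cells with low Ter119 and increasing CD71, S2 has intermediate Ter119 and high CD71, S3 has high Ter119 and high CD71, and S4/S5 has high Ter119 and lower CD71. They held 1510, 1054, 612, 1295, 838 and 898 cells. The 820 cells with more than 95.84 counts of 5 lineage antibodies formed a lineage-high group outside the stages, and 78 of the 82 macrophage-like cells fell there, against 3 in S0-low, 1 in no population and 0 in S0-medium to S4/S5. These cells had a median of 202 CD11b counts (range 33 to 1726) and 1386 CD44 counts, where all other kept cells had medians of 6 and 124. Their median Ter119 count was 73.5, against 21 in all other kept cells. Antibodies that macrophages are not known to bind specifically were also above the other cells, with medians of 38 against 12 counts for CD45R and 21 against 7 for CD3e, and the non-specific IgG was counted in 17.1% of macrophage-like and 3.25% of other cells.

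On build GRCm38, *C1qa*, *C1qc* and *C1qb* lie side by side on chromosome 4, from 136895916 to 136898844, from 136889801 to 136892936 and from 136880126 to 136886200. *Marco* and *Slc40a1* are both on chromosome 1, far apart, from 120474538 to 120505024 and from 45908070 to 45926532. *Timd4* is on chromosome 11, *Cd5l* on chromosome 3, *Fcna* on chromosome 2, *Lgmn* on chromosome 12 and *Hmox1* on chromosome 8.

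RefSeq promoter windows were given for 7 of the 10 genes and not for *C1qa*, *Hmox1* and *Slc40a1*. The 250 bases before the annotated start were searched on both strands for GAGGAA, a core sequence that ETS factors of the PU.1 type are known to bind. The letters were present in the windows of 5 of these 7 genes (*C1qb*, *C1qc*, *Marco*, *Cd5l* and *Fcna*) and in 23.3% of all 32851 windows. TGACNNNGC, the core of the antioxidant response element, was present in 1 of 7 (*C1qb*) and in 10.2% of all windows. A match describes the letters and is no evidence of binding. The 50 bases around the first GAGGAA in 4 of the 5 windows are shown, since these genes are among those most restricted to macrophage-like cells. *Fcna*, as restricted, is not shown because the sequence around its match lies inside the gene's extent. The sequences are printed with the match, or TTCCTC where it lies on the other strand, in capitals.
C1qb, chr4:136886203-136886252, minus strand: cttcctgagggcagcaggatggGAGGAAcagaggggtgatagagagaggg
C1qc, chr4:136893080-136893129, minus strand: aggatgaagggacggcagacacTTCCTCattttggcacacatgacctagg
Marco, chr1:120505143-120505192, minus strand: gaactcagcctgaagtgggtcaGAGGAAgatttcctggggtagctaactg
Cd5l, chr3:87357793-87357842, plus strand: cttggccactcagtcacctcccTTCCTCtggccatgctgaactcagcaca
The match begins 30 bases before the start in *C1qb*, 193 in *C1qc*, 146 in *Marco* and 66 in *Cd5l*. The start used for *C1qc* lies slightly inside its gene extent.

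All 10 genes were higher in the macrophage-like cells than in all other kept cells. The difference in log2(mean CPM + 10) lay between 5.81 for *Timd4* and 7.77 for *C1qc*, with a median of 6.85. The background for this is that 12.2% of the 11238 genes with at least 50 UMIs were higher by 2-fold or more, and 6.16% were lower, with a median difference over all genes of -0.02. The 10 genes were named as macrophage genes, with earlier results of these data known, so their count is no test against this background. The plot of levels by class has the macrophage-like cells at the top for each gene.

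**Figure D1:**
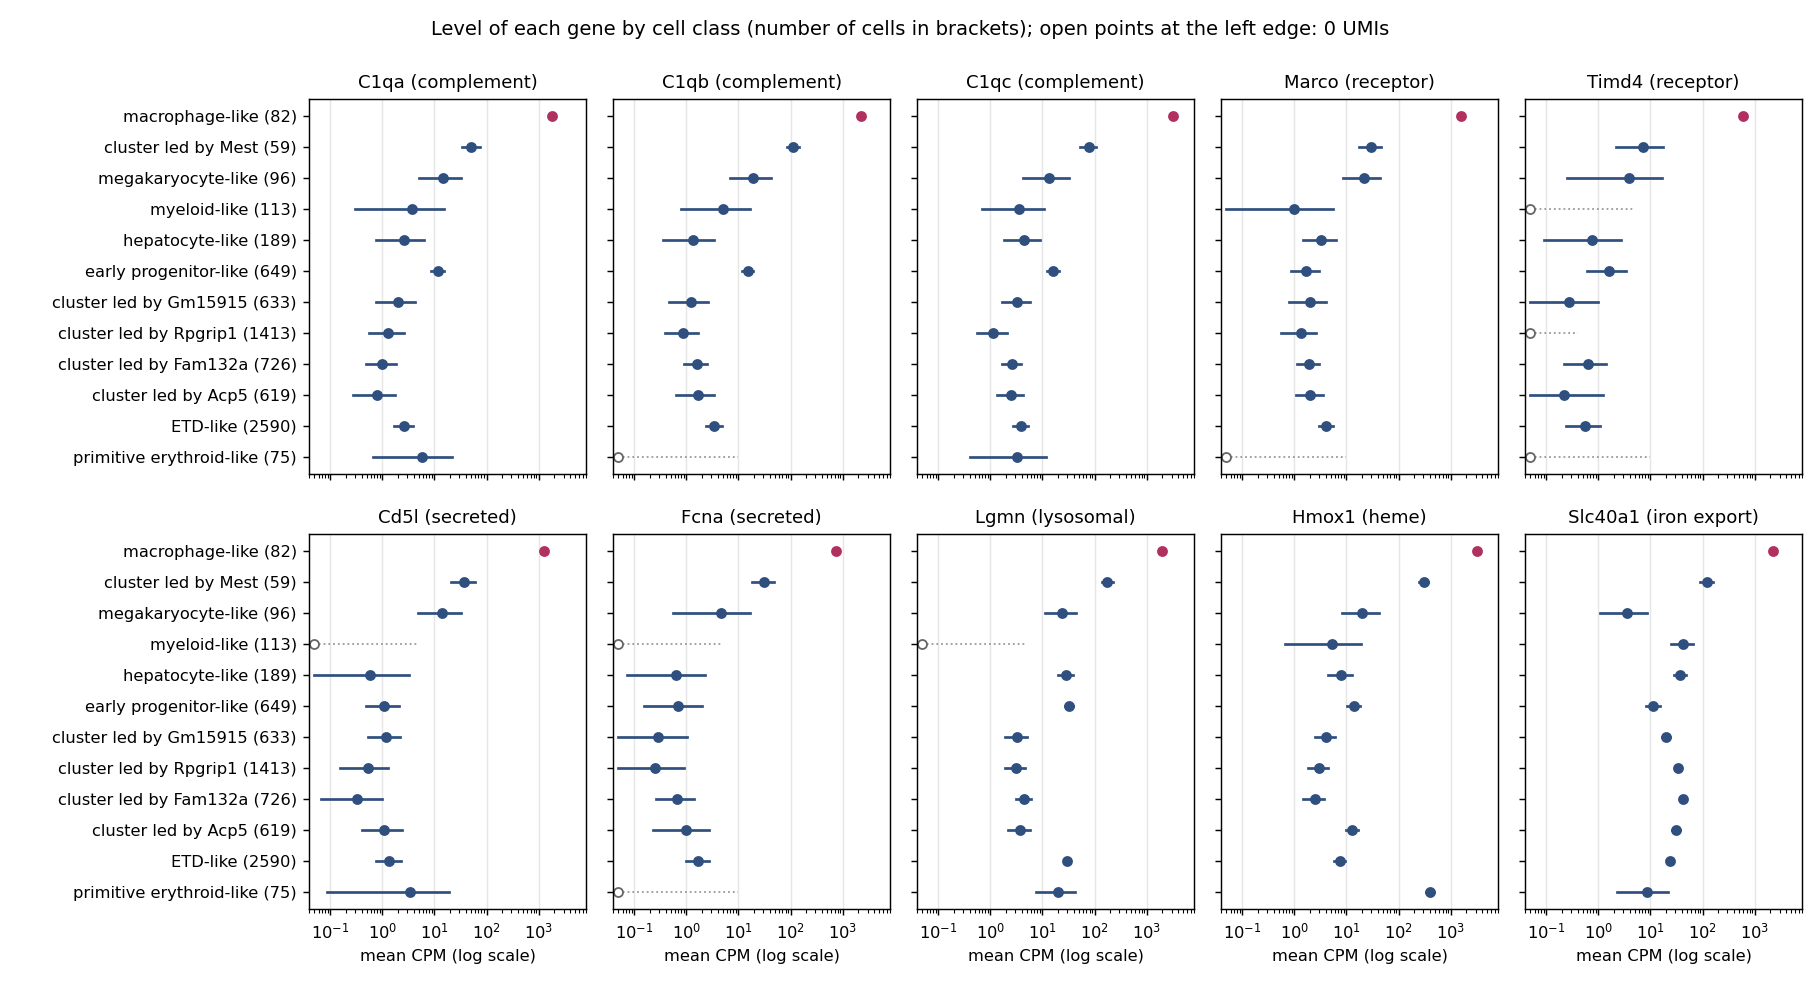
Mean CPM (log axis) of each gene in 12 cell classes, with points for the mean, bars for the 95% counting interval (cut at the left edge, and hidden where narrower than the point) and open points for classes with 0 UMIs. The macrophage-like cells are highest in all 10 panels. *Hmox1* has its next highest points in the primitive erythroid-like cells (404 CPM) and the cluster led by *Mest* (302 CPM), and the points of *Slc40a1* outside the macrophage-like cells lie closer together than those of the other genes.

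The C1q genes were present in nearly every macrophage-like cell. In macrophage-like cells the mean level was 1810 CPM (1686 to 1941) for *C1qa*, 2280 CPM (2143 to 2424) for *C1qb* and 3223 CPM (3059 to 3395) for *C1qc*, against 3.40, 4.49 and 4.86 CPM in all other kept cells. Every macrophage-like cell held a UMI of the trio, with 3 UMIs in the lowest cell, a median of 44 and 172 in the highest, and after each cell was thinned to 2000 UMIs the share with a trio UMI was still 100%. In the terminally differentiating erythroid cells (ETD-like, 2590 cells, median 4189 UMIs), which should not make C1q, 4.02% of cells held a trio UMI, 2.09% after thinning, and the mean was 9.84 CPM (7.99 to 11.99). A share at or below this was read as background, since free RNA in droplets gives UMIs in cells that do not express a gene. Of all 4719 trio UMIs in kept cells, 4063, or 86.1% (85.1% to 87.1%), lay in the 82 macrophage-like cells, which held 1.04% of all kept UMIs.

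The remaining 656 trio UMIs were spread unevenly. The cluster led by *Mest*, 59 cells with endothelial and mesenchymal genes that took no single name, held 141 of them and the early progenitor-like cells 202, while 1413 cells of the clusters led by *Rpgrip1* held 32. In the cluster led by *Mest*, 5 cells with at least 10 trio UMIs carried 96 of the 141 UMIs, and in the early progenitor-like class 6 such cells carried 144 of the 202. These cells also had other macrophage transcripts. The 5 cells had UMIs of 7 to 12 of the 17 macrophage markers, where the median of their cluster was 2, and 71 to 530 CD11b counts. The 6 early progenitor-like cells had 8 to 10 markers against a class median of 2, and 135 to 805 CD11b counts. Cells with many C1q transcripts were thus not confined to the macrophage-like cluster. In the deposited matrix 103 cells had at least 10 trio UMIs, of which 76 were kept as macrophage-like, 12 were kept in other clusters, 14 were over the limit of 9% mitochondrial UMIs and 1 was called a doublet.

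The counted proportions of the 3 C1q genes differed most in the cluster led by *Mest*, where few cells held most of the UMIs. In macrophage-like cells *C1qa* made up 24.4% of the trio's UMIs, *C1qb* 31.4% and *C1qc* 44.2% (42.6% to 45.7%). In ETD-like cells the shares were 24.8%, 34.9% (26.0% to 44.6%) and 40.4%, and the intervals include the macrophage-like values. The cluster led by *Mest* had 46.8% *C1qb* (38.4% to 55.4%) and 31.9% *C1qc* (24.3% to 40.3%), and these intervals do not. Over all other kept cells *C1qc* made up 38.7% (35.0% to 42.6%).

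The receptors and secreted proteins were as restricted to macrophage-like cells as C1q, but not every macrophage-like cell held them. *Marco*, a scavenger receptor for bacteria and particles, had 907 UMIs in 60 of the 82 cells, with a median of 5 and 100 in the highest cell, and a mean of 1593 CPM (1477 to 1714) against 3.06 CPM elsewhere. *Cd5l*, a secreted scavenger receptor cysteine-rich protein, had 688 UMIs in 61 cells, with a median of 4.5 and a highest value of 71, and a mean of 1243 CPM (1140 to 1352) against 1.48 CPM. *Fcna*, a lectin that can start the complement cascade, had 401 UMIs in 65 cells, with a median of 3.5 and a highest value of 23, and a mean of 751 CPM (671 to 839) against 1.23 CPM. *Timd4*, which tethers apoptotic cells, had 315 UMIs in 72 cells, with a median of 3 and a highest value of 16, and a mean of 583 CPM (513 to 660) against 0.578 CPM.

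All 10 genes left more cells empty than evenly spread counts would, but the excess differed between them. *Marco*, *Timd4*, *Fcna* and *Cd5l* had the most empty cells, though a gene of low mean leaves many cells empty even when evenly spread. After thinning to 2000 UMIs, *Marco* was at 0 in 28 of 82 cells, where evenly spread counts of the same mean would leave 3.36 cells at 0, and *Cd5l* was at 0 in 27, where they would leave 6.90. *Hmox1* was at 0 in 13 cells, where evenly spread counts would leave 0.150. *Timd4* and *Fcna* were each at 0 in 32 cells, where they would leave 27.0 and 20.2. Most empty cells of *Timd4* and *Fcna* were thus those that their mean predicts. The excess was also small in cells for *C1qb*, at 0 in 3 against 0.797, and *C1qc*, at 0 in 2 against 0.182. The 8 highest cells held 46.2% of the *Marco* UMIs, 40.6% of the *Cd5l* UMIs and 23.8% of the C1q trio UMIs.

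*Marco* and *Cd5l* tended to be counted in the same cells. In the thinned counts, 47 cells held both, 7 held *Marco* alone, 8 held *Cd5l* alone and 20 held neither, and Pearson's r of log2(UMIs + 1) was 0.63 over the 82 cells, the highest of the 45 pairs among the 10 genes. These cells come from 1 library and share differences in composition, so r is a description. In the unthinned counts, *Cd5l* had 674 UMIs in 56 of the 60 cells with a *Marco* UMI and 14 UMIs in 5 of the 22 cells without one. The corresponding values were 364 UMIs in 55 cells and 37 in 10 cells for *Fcna*, and 276 UMIs in 58 cells and 39 in 14 cells for *Timd4*. In cells with and without *Marco*, the mean was 1953 and 1421 CPM for *C1qa*, 2261 and 2333 CPM for *C1qb*, and 3371 and 2820 CPM for *C1qc*. It was 3688 and 1915 CPM for *Hmox1* and 2193 and 1295 CPM for *Lgmn*. *C1qb* was thus nearly level, and the others were higher where *Marco* was counted. Cells without *Marco* had a median of 6559 UMIs and cells with it 6304, and CD11b was at medians of 200.5 and 202 counts, but the median CD71 count was 180.5 without and 369.5 with *Marco*, and that of CD44 was 933.5 and 1470. The median Ter119 count went the other way, at 104.5 without and 67.5 with *Marco*.

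**Figure D2:**
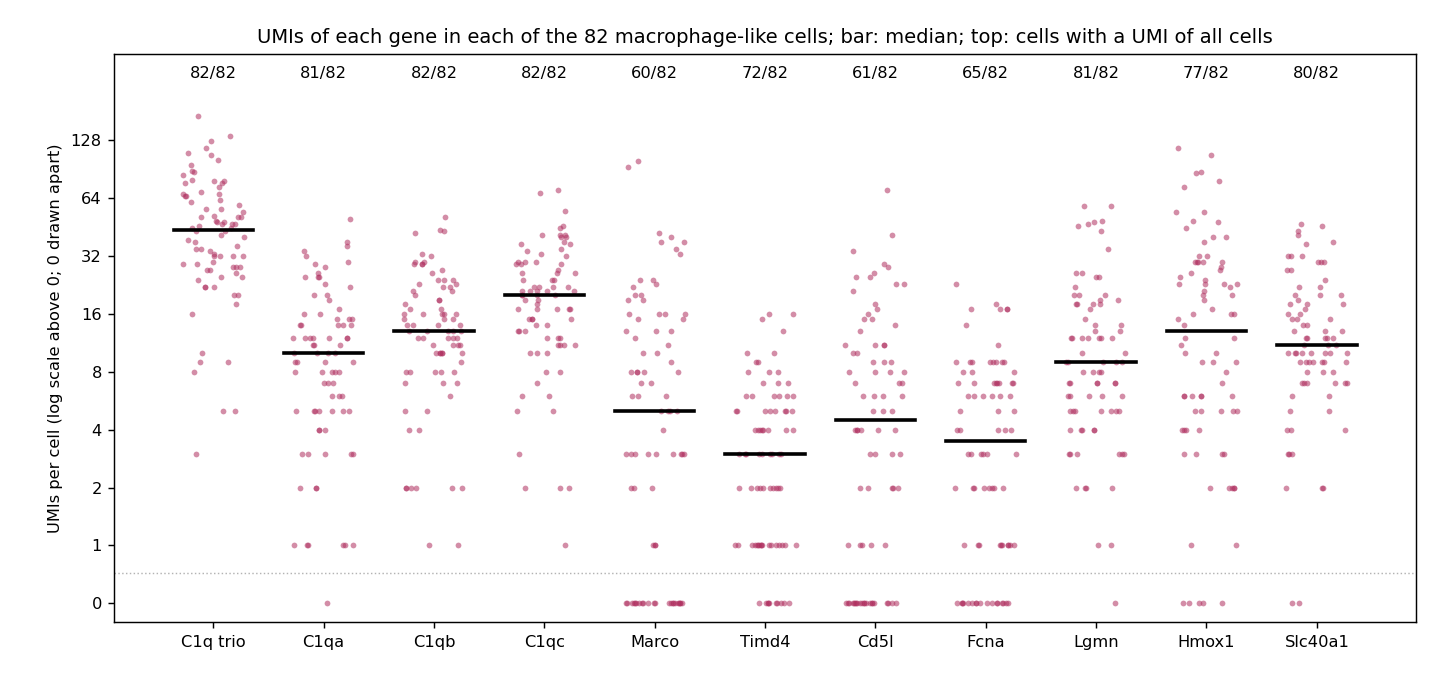
UMIs of each gene (log scale above 0, with 0 drawn apart) in each of the 82 macrophage-like cells, with 1 point per cell, bars for the median and the number of cells with a UMI above each column. All cells hold the C1q trio, while *Marco*, *Cd5l* and *Fcna* each leave a row of 17 to 22 cells at 0.

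*Lgmn*, which cleaves proteins after asparagine in the lysosome, was present in 81 of the 82 macrophage-like cells, with a median of 9 UMIs and a highest value of 58. Its mean was 1952 CPM (1823 to 2087) against 18.1 CPM (16.6 to 19.6) in all other kept cells. *Hmox1* varied widely between cells. It had 1750 UMIs in 77 cells, with a median of 13 and 117 in the highest cell, and in the thinned counts its variance was 8.06 times its mean, against 2.56, 2.09 and 2.67 times for the C1q genes. Its mean was 3212 CPM (3046 to 3385) against 13.52 CPM. *Slc40a1* was among the more even, with 1205 UMIs in 80 cells, a median of 11, a highest value of 47 and a variance of 2.05 times its mean. Its mean was 2198 CPM (2062 to 2340) against 27.7 CPM (26.2 to 29.4) elsewhere.

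The 82 macrophage-like cells differed in how many of the 10 genes they held. The lowest held 4 and 52 held all 10, with a median of 10, which was 8 after thinning. Of the 7162 other cells, 7 held 8 or more.

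The share of UMIs inside the macrophage-like cells differed between the 10 genes. It was high for *Cd5l*, *Timd4*, *Fcna*, *C1qc*, *C1qa*, *Marco* and *C1qb*, of whose UMIs at least 84.3% lay in macrophage-like cells. It was lower for *Hmox1* with 73.8% (72.02% to 75.6%), *Lgmn* with 59.7% (57.4% to 62.0%) and *Slc40a1* with 43.0% (41.1% to 44.8%). Most *Slc40a1* transcripts thus lay in other cells, where 1227 cells held 1599 UMIs.

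The UMIs of each gene were set against the trio's UMIs in the same class, at the macrophage-like proportion. The profile of free RNA was not measured, so these ratios are a description. In ETD-like cells, *Cd5l* had 0.921 times (0.518 to 1.54) the count that the trio predicts, *Timd4* 1.07 times (0.474 to 2.097), *Fcna* 1.67 times (0.956 to 2.77) and *Marco* 1.89 times (1.31 to 2.69). *Hmox1* had 1.73 times (1.28 to 2.32). The intervals of *Marco* and *Hmox1* lay above 1 and the other three included it. *Lgmn* had 10.5 times (8.39 to 13.2) and *Slc40a1* 9.25 times (7.40 to 11.6), so the latter pair was counted in ETD-like cells far beyond its macrophage proportion. In hepatocyte-like cells *Lgmn* had 11.3 times (6.62 to 20.1) and *Slc40a1* 13.7 times (8.19 to 23.9), with 58 UMIs in 45 and 77 UMIs in 59 of 189 cells. In early progenitor-like cells *Marco*, *Cd5l* and *Fcna* were below the prediction, at 0.266 times (0.135 to 0.475), 0.263 times (0.119 to 0.510) and 0.201 times (0.0541 to 0.522). The C1q transcripts of that class thus came with less *Marco*, *Cd5l* and *Fcna* than in macrophage-like cells. Its 6 cells of 10 or more trio UMIs carried 144 of the 202 trio UMIs, so the ratios largely describe these cells, and the intervals do not cover this uneven spread. Of the 6 cells 1 held *Marco*, with 9 of the 12 *Marco* UMIs of the class. *Lgmn* was above the prediction in this class, at 2.63 times (2.11 to 3.28). Of its 144 UMIs there, 97 lay in cells with no trio UMI.

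**Figure D3:**
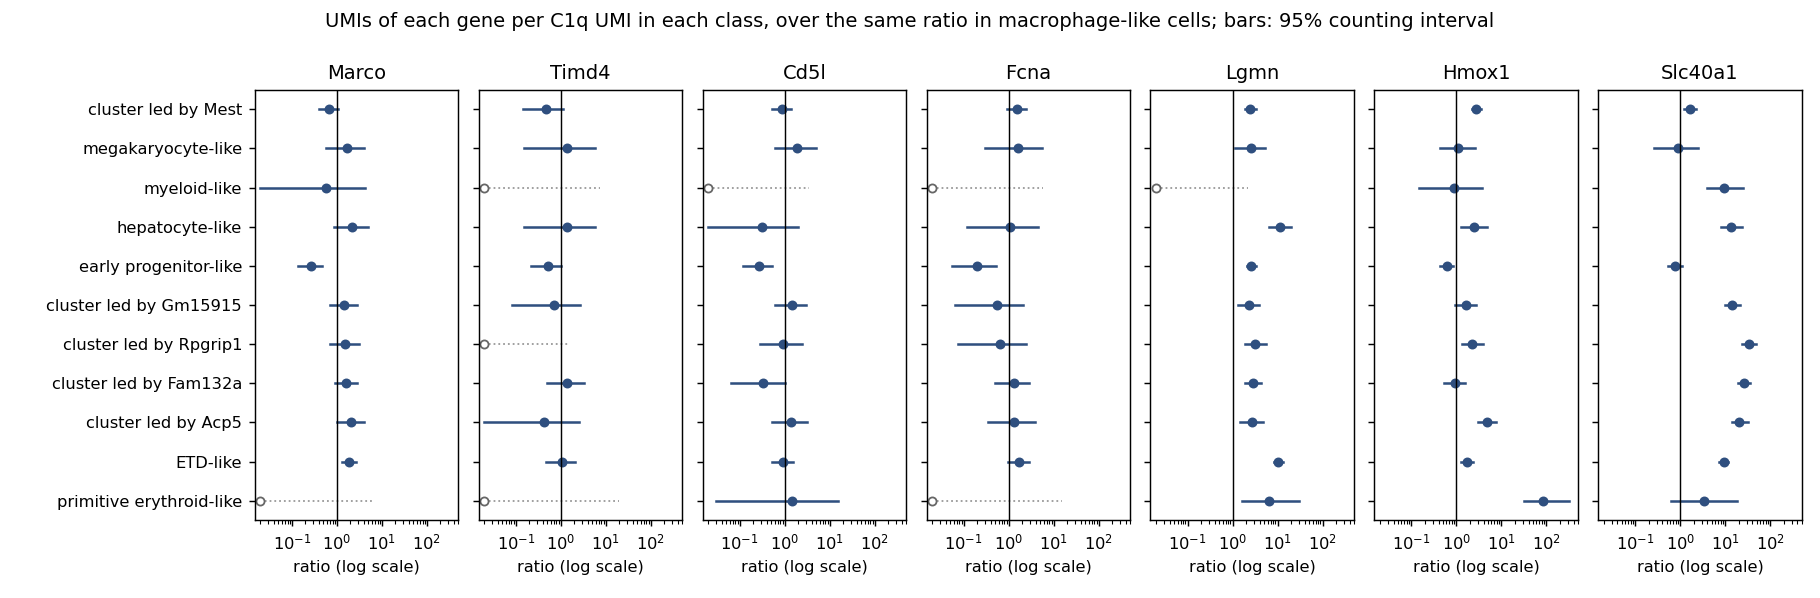
UMIs of each gene per C1q trio UMI in each class, divided by the same ratio in macrophage-like cells (log axis, line at 1), with bars for the 95% counting interval and open points for 0 UMIs. *Marco*, *Timd4*, *Cd5l* and *Fcna* lie around 1 in most classes. *Slc40a1* lies well above 1 in ETD-like, hepatocyte-like and myeloid-like cells and in the clusters led by *Acp5*, *Fam132a*, *Gm15915* and *Rpgrip1*. In primitive erythroid-like cells its interval includes 1. *Lgmn* lies well above 1 in ETD-like and hepatocyte-like cells and *Hmox1* in primitive erythroid-like cells.

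In primitive erythroid-like cells, the first wave of red cells that still make embryonic globins, *Hmox1* was the 1 member of the 10 with more than 7 UMIs. Its 146 UMIs lay in 28 of the 75 cells, with 17 in the highest cell and 71 in the 5 highest, and the mean was 404 CPM (340 to 477). That was 54.5 times (40.9 to 73.2) the level in ETD-like cells, at 7.42 CPM (5.82 to 9.31), where 81 UMIs lay in 78 of 2590 cells. The interval does not cover the uneven spread over cells. With globin genes left out of the totals, the means were 2170 CPM in primitive erythroid-like and 18.2 CPM in ETD-like cells. The C1q trio had 4 UMIs in the same 75 cells, and 26 of the 28 cells with *Hmox1* held no trio UMI. The primitive erythroid-like cells were shallow in genes, with a median of 458 genes and 4881 UMIs per cell. *C1qb*, *Marco*, *Timd4* and *Fcna* had no UMI in them, which, at 3 counts of the total, allows a UMI in up to 4.0% of such cells and sets no limit on cells that express the gene at this depth.

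Other classes held other members. In the 113 myeloid-like cells, which were led by the granule genes *Ngp* and *Camp*, *Cd5l*, *Timd4*, *Lgmn* and *Fcna* had no UMI, which by the same count allows a UMI in up to 2.65% of such cells, while *Slc40a1* had 22 UMIs in 19 cells. In the cluster led by *Mest*, *Hmox1* had 167 UMIs in 35 of 59 cells and a mean of 302 CPM (250 to 363), and *Lgmn* had 95 UMIs in 35 cells and 177 CPM (138 to 223). Of these, 72 *Hmox1* UMIs and 29 *Lgmn* UMIs were in cells with no trio UMI. In the cluster led by *Acp5*, 38 of the 62 *Hmox1* UMIs came from 1 cell.

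The C1q trio was low over the erythroid stages. With macrophage-like cells left out, its level was 5.37 CPM (3.90 to 7.20) in S0-low, 5.27 CPM in S0-medium, 4.70 CPM in S1, 5.09 CPM in S2, 8.52 CPM in S3 and 10.2 CPM (7.08 to 14.2) in S4/S5. Per 1000 cells that was 39.2, 57.9, 44.1, 34.8, 43.0 and 42.3 UMIs, so the higher CPM of the last stages came with cells of fewer UMIs, whose median was 3949 in S4/S5 and 6154 in S0-low. The background level of the trio was taken from ETD-like cells, which made up 771 of the 838 S3 cells and 840 of the 898 S4/S5 cells. These 2 stages can therefore not be judged against it. *Marco*, *Cd5l*, *Timd4* and *Fcna* each had 2 to 22 UMIs in any stage, too few to order the stages.

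From S0-low to S3, 3 of the 10 genes had at least 50 UMIs (*Lgmn*, *Hmox1* and *Slc40a1*), and 0 of these 3 differed by 2-fold on the log2(mean CPM + 10) scale. The background is that 4.28% of 9400 genes were higher by 2-fold or more in S3 and 39.5% were lower, with a median over all genes of -0.81. All 3 differences lay above that median, at 0.84 for *Lgmn*, 0.60 for *Hmox1* and 0.13 for *Slc40a1*. *Lgmn* and *Hmox1* were under 10 CPM in S0-low, so on this scale neither could have been 2-fold lower. *Hmox1* could not have fallen as low as the median, so its place above it carries no information. Without globin genes in the total, the median over all genes was -0.525, and the differences were 1.77, 1.68 and 0.81. The pseudocount of 10 shrinks differences at low levels such as these. The plain ratio of S3 to S0-low was 2.75 (1.96 to 3.88) for *Lgmn* and 1.14 (0.888 to 1.44) for *Slc40a1*. For *Hmox1*, with primitive erythroid-like cells included, it was 2.55 (1.65 to 3.98).

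*Lgmn* was highest in the last stages. Its level was 8.18 CPM (6.35 to 10.4) in S0-low, 5.04 CPM in S0-medium, 2.79 CPM in S1, 5.48 CPM in S2, 22.5 CPM (17.7 to 28.2) in S3 and 52.4 CPM (44.9 to 60.8) in S4/S5. The level in S4/S5 was 6.41 times that in S0-low (4.82 to 8.62), and the difference in log2(mean CPM + 10) was 1.78, where 2.93% of 9291 genes were higher by 2-fold or more and 57.9% were lower. S4/S5 was also above the other stages in UMIs per 1000 cells, with 57.7 in S0-low, 30.9 in S2 and 209 in S4/S5, while S0-medium and S1, which lay below S2 in CPM, lay above it on this scale. The 4 clusters that make up the ETD-like cells also differed. *Lgmn* was 4.78 CPM (2.999 to 7.22) in the one led by *Cdkn2c*, 20.4 CPM in that led by *Hist1h2bc*, 70.6 CPM (59.1 to 83.6) in that led by *Tmcc2* and 48.7 CPM in that led by *Bpgm*, while *Slc40a1* was 32.9 CPM (28.1 to 38.3), 28.7, 16.7 and 7.99 CPM (4.35 to 13.46) in the same order. With globin genes left out of the totals, *Lgmn* was 7.24, 44.2, 188 and 194 CPM in these clusters. *Slc40a1* was then 46.2, 56.2, 41.1 and 34.9 CPM, a much smaller difference in which the second cluster was highest. Cells of the stages and of no population were also ordered by Ter119. Macrophage-like, hepatocyte-like, myeloid-like, megakaryocyte-like and primitive erythroid-like cells and the cluster led by *Mest* were left out, and early progenitor-like cells were kept. In this order *Lgmn* stayed between 3.29 and 10.3 CPM in the 7 lowest deciles and reached 18.2, 39.0 and 51.9 CPM in the 3 highest. Within Ter119-high cells it was lower where CD71 was higher, from 47.8 CPM (31.8 to 69.0) in the lowest decile of CD71 to 15.7 CPM (8.12 to 27.3) in the highest. The transcripts were spread thinly, with 188 UMIs in 133 of 898 S4/S5 cells, and the C1q trio over the same deciles of CD71 stayed between 5.91 and 12.7 CPM.

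*Slc40a1* had a different course, highest in S0-medium by CPM, whereas with globin genes left out of the totals S3 was highest, at 2.07 times S0-low against 1.71 times for S0-medium. Its level was 23.7 CPM (20.5 to 27.1) in S0-low, 40.1 CPM (35.8 to 44.8) in S0-medium, 30.2 CPM (25.7 to 35.2) in S1, 28.4 CPM in S2, 26.9 CPM in S3 and 14.1 CPM (10.4 to 18.8) in S4/S5. S0-medium was 1.69 times S0-low (1.42 to 2.03), while S1, S2 and S3 had overlapping intervals. After thinning to 2000 UMIs per cell, 4.11% of S0-low cells, 8.73% of S0-medium cells and 2.67% of S4/S5 cells held a UMI. The S4/S5 level was 0.598 times that of S0-low (0.427 to 0.822), but with globin genes left out of the total it was 1.69 times that of S0-low, and 3 other ways of setting the antibody gates also put it above S0-low, so no direction is given for that last difference. Ordered by CD71 in Ter119-low cells, *Slc40a1* was 4.197 CPM (1.29 to 10.1) in the lowest decile, with 5 UMIs in 304 cells, 10.5 CPM in the next, 34.7 CPM (26.7 to 44.4) in the third and 29.5 to 42.3 CPM in the others. S0-low thus joined cells of low and of high *Slc40a1* level. Of the 1510 S0-low cells, 349 were early progenitor-like, a class with 11.3 CPM (8.10 to 15.4) and a median CD71 count of 25. Of the 46 *Slc40a1* UMIs of the class, 25 lay in 5 of its 6 cells of 10 or more trio UMIs. These 6 cells had at least 135 CD11b counts, over the lineage limit of 95.84, so none was in S0-low. The class mean is thus no measure of the 349 cells. The deciles kept the early progenitor-like cells of S0-low, and the second decile of CD71 ended at 57 counts. Their part in the rise from the second to the third decile was not tested.

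**Figure D4:**
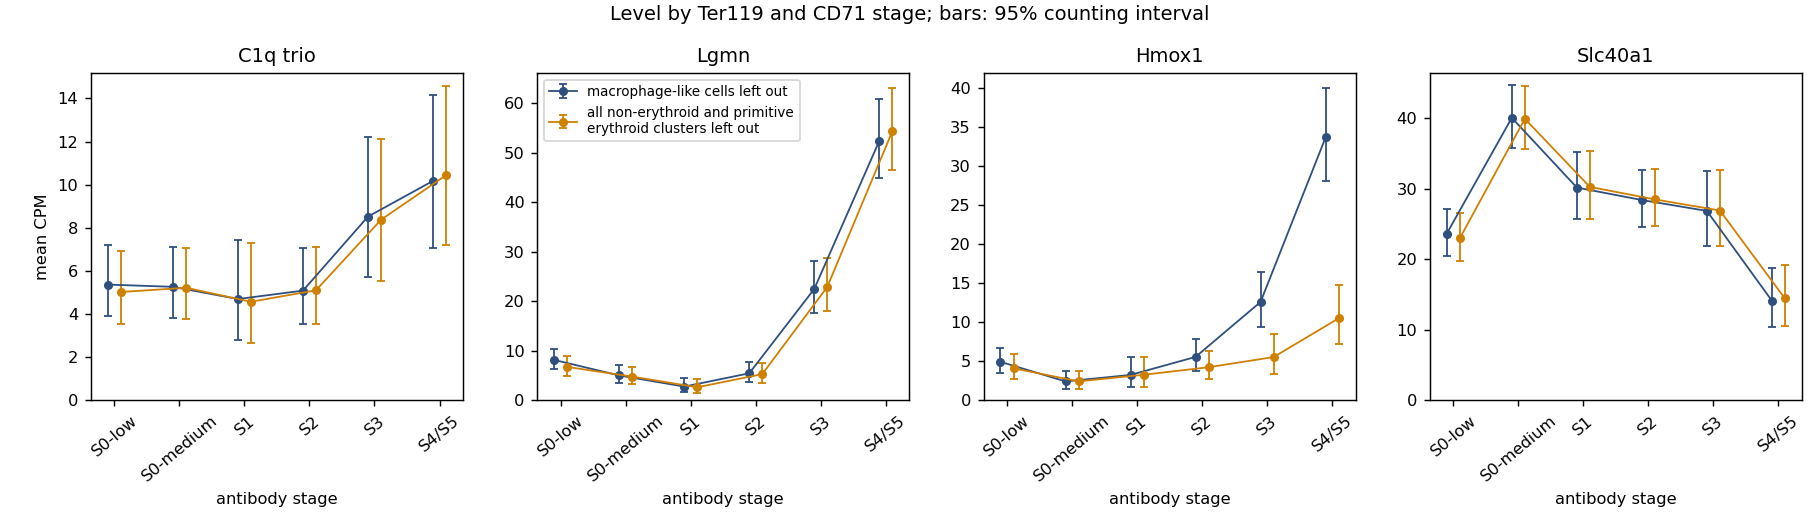
Mean CPM of the C1q trio, *Lgmn*, *Hmox1* and *Slc40a1* in 6 antibody stages, with macrophage-like cells left out (blue) and with hepatocyte-like, myeloid-like, megakaryocyte-like and primitive erythroid-like cells and the cluster led by *Mest* left out too (orange), and bars for the 95% counting interval. Both sets agree closely except for *Hmox1*, whose S4/S5 level is 33.7 CPM in blue and 10.5 CPM in orange.

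*Hmox1* was low in the stages until S3. Its level was 4.94 CPM (3.50 to 6.78) in S0-low, 2.43 CPM in S0-medium, 3.26 CPM in S1, 5.57 CPM in S2, 12.6 CPM (9.45 to 16.5) in S3 and 33.7 CPM (28.1 to 40.04) in S4/S5. Much of the late level was in primitive erythroid-like cells, of which 13 fell in S3 and 40 in S4/S5. With these and the hepatocyte-like, myeloid-like and megakaryocyte-like cells and the cluster led by *Mest* left out, an alternative added after the values were seen that kept the early progenitor-like cells, it was 5.55 CPM (3.41 to 8.53) in S3 and 10.5 CPM (7.24 to 14.7) in S4/S5, and the ratio of S4/S5 to S0-low was 2.55 (1.505 to 4.36) in place of 6.82 (4.72 to 10.1). The 39 UMIs left in S4/S5 were 2.45 times (1.52 to 3.95) what the trio's UMIs predict.

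**Figure D5:**
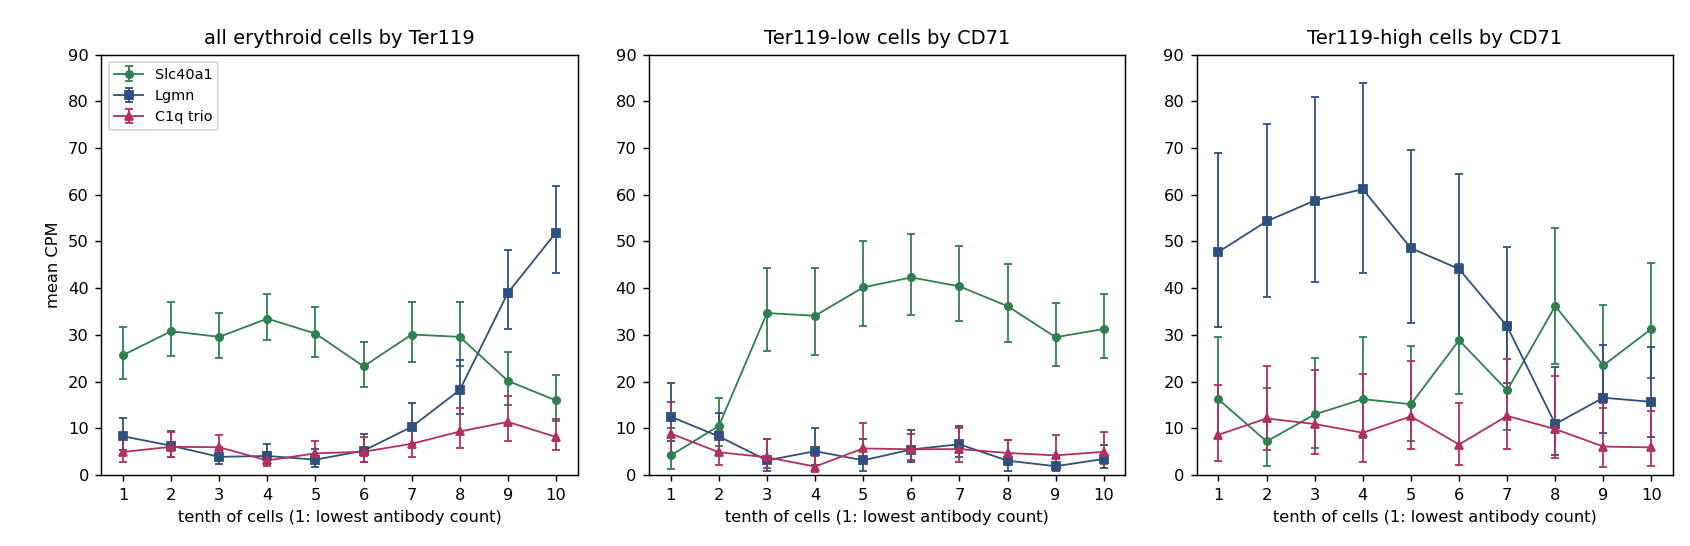
Mean CPM of *Slc40a1*, *Lgmn* and the C1q trio in deciles of cells ordered by antibody count, by Ter119 over lineage-low cells (left), by CD71 in Ter119-low cells (middle) and by CD71 in Ter119-high cells (right), with bars for the 95% counting interval. Macrophage-like, hepatocyte-like, myeloid-like, megakaryocyte-like and primitive erythroid-like cells and the cluster led by *Mest* are left out, and early progenitor-like cells are kept. *Slc40a1* steps up between the second and the third decile of CD71 in the middle panel, *Lgmn* is high in the highest deciles of Ter119 and in the lower deciles of CD71 on the right, and the trio stays below 13 CPM throughout.

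Other genes of the same pathways were counted in 4 lists, whose genes took part in the clustering, so the counts describe the cluster. Some of them, among them *Ctss*, *Spic* and *Axl*, also belong to the macrophage markers that gave the cluster its name. Beside them stand the 12.2% of all genes that were higher and the 6.16% that were lower. On the log2(mean CPM + 10) scale a gene under 10 CPM in the other cells cannot be called lower, even with no UMI. Of the scavenging and uptake list, 14 of 17 genes with at least 50 UMIs were higher by 2-fold or more in macrophage-like cells and 0 were lower, with a median log2 difference of 3.11. The largest differences were those of *Sirpa*, the receptor of the CD47 signal (411 against 7.78 CPM), and *Msr1*, a class A scavenger receptor (200 against 0.632 CPM). The smallest were those of *Mfge8*, which had no UMI in these cells and 5.21 CPM elsewhere, and *Scarb1*, a receptor of high-density lipoprotein (64.2 against 38.4 CPM). All 20 genes of the lysosomal list were higher, with a median of 3.41, among them *Lamp2* (138 against 26.0 CPM), *Ctss* (650 against 8.89 CPM) and *Lgals3* (1057 against 16.2 CPM). The macrophage-like cells thus held most genes of the uptake list and all of the lysosomal list at higher levels than the rest. This describes a cluster that was named in part by genes of these lists.

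The complement list was divided, with 5 of 13 genes higher and 1 lower. Several of its genes with no UMI in macrophage-like cells were under 10 CPM elsewhere and so could not be counted as lower. *Cfp*, which encodes properdin (510 against 4.09 CPM), and *C5ar1*, the receptor of C5a (118 against 1.78 CPM), were highest over the rest. *C3*, the central complement component (1.51 against 12.2 CPM), and *Fcnb*, the ficolin of granulocytes (no UMI against 14.7 CPM), were at the other end, so *Fcna* and *Fcnb* lay in different cells. Of the list for heme and iron recycling, 7 of 19 genes were higher and 4 lower, with a median of -0.02. *Spic*, a transcription factor of iron-recycling macrophages (215 against 0.426 CPM), and *Slc11a1*, a metal transporter of phagosomes (208 against 0.683 CPM), were highest. *Abcg2*, a porphyrin exporter (40.2 against 182 CPM), and *Hpx*, the plasma protein that binds heme (0.906 against 24.9 CPM), were lowest. The ferritin genes, named after their values were seen, were 2.63 times higher for *Fth1* (16673 against 6337 CPM) and 4.48 times higher for *Ftl1* (32654 against 7287 CPM).

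From S0-low to S3 the heme and iron list had 6 of 16 genes higher and 3 lower, against 4.28% and 39.5% of all genes. The lysosomal list had 1 of 19 higher and 11 lower, and the scavenging list 1 of 8 higher and 4 lower. Genes under 10 CPM in S0-low could not be called lower. Only macrophage-like cells were left out here, so S0-low held 110 hepatocyte-like and 349 early progenitor-like cells, where S3 held 2 and 1. *Hpx*, among the lower genes, had 942 UMIs in S0-low and 47 in S3. The part of these cell classes in the counts was not tested. The median of the lysosomal list was -1.15 on the log2 scale, where *Lgmn* had 0.84, and that difference was not tested. From its level in S0-low, *Lgmn* could not have fallen as far as that median on this scale.

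Over the 16 clusters, the genes whose log2(pooled CPM + 10) followed the C1q trio most closely were *Axl* (r = 0.99), *Pdlim4* (r = 0.98), *Sdc3* (r = 0.98) and *Slc43a2* (r = 0.98). Those of *Slc40a1* were *Spic* (r = 0.95), *Il18bp* (r = 0.95), *Folr2* (r = 0.94), *Rxra* (r = 0.94) and *Sdc3* (r = 0.94), and those of *Hmox1* were *Ndfip1* (r = 0.92), *Pdlim4* (r = 0.90), *H2-M3* (r = 0.87), *Dpp7* (r = 0.86) and *Parp12* (r = 0.86). The clusters share 1 library, so these values are a description. The pooled level of the trio was 7155 CPM in macrophage-like cells, 295 CPM in the cluster led by *Mest* and 45.2 CPM in early progenitor-like cells. A few clusters, the macrophage-like one above all, thus weigh heavily in r. Some of the genes were sparse, with 79 UMIs in all for *Pdlim4*, 59 for *H2-M3* and 78 for *Parp12*.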

How the data were processed

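CITE-seq of 1 suspension of fetal liver cells gave 1 cDNA and 1 antibody library. The authors mapped the cDNA reads to mm10 with Cell Ranger and deposited unnormalized UMI counts for the genes and unnormalized counts for the antibodies. Strand use and overlap handling in counting are not given in the sources used here. All 7863 barcodes were shared by both libraries.

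The limits for keeping a cell were 300 to 5000 genes and a mitochondrial share of no more than 9%. Scrublet (scanpy 1.11.5, expected rate 6%) called 128 cells doublets, which were removed. Cells were log-normalized to 10000 counts and clustered by Leiden (2000 variable genes, 16 components, 30 neighbours, resolution 0.8) without the 10 genes. Clusters were named where at least 50% and 3 of the fixed markers were raised and no other list had more markers among the 10 leading genes, a scoring rule set after clusters were seen. The 6 unnamed clusters are called by their leading gene.

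Antibody counts were put on a centered log ratio scale over cells. Lineage-high cells lay over 2 scaled median absolute deviations above the median of the log summed counts of 5 antibodies (CD11b, CD41, Ly6G/6C, CD45R, CD3e), and k-means split Ter119 and CD71. The study's gate positions were not used here.

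Intervals for mean CPM are Poisson on the effective count of the weighted mean, those for shares Clopper-Pearson. Differences were taken as log2(mean CPM + 10) for genes with at least 50 UMIs. The ratios and gates were tested on simulated counts. Of 200 planted 4-fold changes, 152 passed 2-fold for S3 over S0-low and 117 for macrophage-like over all other kept cells. Of the unchanged genes, 0 of 9505 and 14 of 10956 passed. The simulated gene counts were Poisson, without the uneven spread over cells seen here. The gates placed 94.95% of the simulated lineage-low cells correctly. The members and lists were chosen with earlier results of these data known. Named were the 10 genes, up to 4 genes of each list with the largest and smallest differences, and up to 5 genes most alike in pattern to the C1q trio, *Hmox1* and *Slc40a1*. *Flvcr1* was not analysed here, and some genes and motifs under these rules are not reported here. Promoter sequences and positions are from RefSeq, GRCm38.p6. Alternatives changed the antibody scale, classes, lineage limit, filters, clusters, denominator and pseudocount. Python 3.11.15, numpy 2.4.6, scipy 1.17.1 and scikit-learn 1.9.0 were used with seed 7.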

Additional observations from a re-analysis of the deposited data

How the results depend on the processing

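No paired analysis was possible because there is 1 library of each kind and the comparisons are within it. All 10 genes stayed at least 2-fold higher in macrophage-like cells under all 11 alternatives run for that count. The share of C1q trio UMIs in macrophage-like cells was 88.8% with doublets kept, where the class held 168 cells, 84.7% at a clustering resolution of 1.2, and 91.9% with macrophages taken as the 172 cells that held at least 5 macrophage markers. Of these 172 cells, 79 were macrophage-like, 82 early progenitor-like, 9 of the cluster led by *Mest* and 2 hepatocyte-like. That rule is thus broader than the macrophage-like cluster, and 7 of the macrophage markers were also raised in the early progenitor-like cluster. From S0-low to S3, 0 of the 10 genes passed 2-fold on the reported log2(mean CPM + 10) scale. With antibodies as log10 counts or as the centered log ratio within each cell, 1 did. With totals that exclude globin genes or with a pseudocount of 1, 2 did. Without globin genes these were *Lgmn* and *Hmox1*, both higher in S3, where 8.02% of 9400 genes were higher and 22.4% lower. The share over all genes was not computed for those other antibody scales or that pseudocount.

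The ratio of S4/S5 to S0-low for *Slc40a1* turned from below to above 1 with antibodies as log10 counts (1.39), as the centered log ratio within each cell (2.03), with a Gaussian mixture (1.36) and without globin genes (1.69). The corresponding ratio of *C1qc* was 0.878 with the centered log ratio within each cell. With macrophage-like cells kept in the stages, the S4/S5 ratio was 0.527 for *C1qb*, 0.548 for *C1qc*, 0.556 for *Marco* and 0.513 for *Fcna*, the S3 ratio was 0.591 for *Marco*, 0.740 for *Fcna* and 0.983 for *Hmox1*, and the S2 ratio was 0.402 for *Fcna*, all below 1, where the 3 macrophage-like cells of S0-low raised its level. The other causes were not tested. The ratio of *Lgmn* in S4/S5 to S0-low stayed between 3.63 and 19.2, and that of *Slc40a1* in S0-medium to S0-low between 1.44 and 6.18, over the alternatives. Leaving other cell types, except the early progenitor-like cells, out of the stages and setting the lineage limit on summed counts were chosen after seeing the data, and both gave 0 genes past 2-fold. Of the other ratios, 80 between stages and 24 between macrophage-like and all other kept cells moved out of their counting interval with no change of direction that had been called, and 392 and 46 did not move so far. With 1 library, depth limits *Timd4* and *Fcna* most, and no interval covers differences between embryos.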
